A study of Mus musculus with 14 samples.

Results

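The immunoglobulin heavy chain variable segments are the 114 rows, of 41053 gene rows in each count table, whose gene name starts with Ighv. They were taken by name alone, and all 114 are accounted for here. A developing B cell joins 1 of these segments to a D and a J segment, so that the segment in its heavy chain messenger RNA is a label that its daughter cells inherit. In a spleen with many B cell families the segments are used side by side, while a single expanded family raises the share of its own segment. Germinal center (GC) B cells are activated B cells that divide and mutate these segments, and they are known to hold families of unequal size.

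RNA-seq had been done on 14 libraries of spleen B cells from C57BL/6 mice. They fall into 4 groups, namely GC B cells of the genotype TET2 Knock-Out (KO, 4 libraries, replicates 2, 3, 4 and 5), GC B cells of the genotype TET2 Wild-Type (WT, 3 libraries, replicates 1, 3 and 4), lymphoma B cells labelled shTet2 with the genotype TET2 Knock-Down (2 libraries, replicates 1 and 2), and control lymphoma B cells of the genotype TET2 Wild-Type (5 libraries, replicates 1 to 5). TET2 converts 5-methylcytosine of DNA to hydroxymethylcytosine, and a short hairpin RNA lowers the messenger RNA it is directed against. Not given in the sources used here are the age of the mice, the purification of GC cells, the part of Tet2 deleted and the origin of the lymphomas. Nothing in the labels says whether libraries of 1 group came from separate mice, so each p reflects the spread among these libraries alone, which may be technical.

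The segments lay on the minus strand of chromosome 12 at chr12:113574242-116000461 on GRCm38, a span of 2426220 bases, with the segments of lowest coordinate nearest to the D and J segments. Of the 114 rows, 81 had 2 exons (a leader exon and the exon of the variable domain) and 33 had 1 exon in the annotation of the files, while a later annotation of the same build (GENCODE vM21) types 106 as variable genes and 8 as pseudogenes. Many segments are close copies. Over the 96 rows with a sequence long enough to compare, the nearest other segment was identical at a median of 95.24% of aligned bases, and 10 rows had a counterpart at 98% or more. Ighv1-62-2 and Ighv1-71 were identical, and they had 0 and 3 counts over all libraries. Reads that fit such pairs equally well could not be assigned, so counts of close copies are uncertain. Ighv2-1, Ighv16-1 and Ighv1-62-2 had 0 counts in all 14 libraries. The vM21 transcripts hold 183 Ighv names, so shares and diversity cover only the segments with a row in the count tables.

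The sequences below, the last 300 bases of each transcript from GENCODE vM21 on GRCm38, are those of the segments that the results turn on. Capitals mark the bases that differ within a pair. The first pair led the shTet2 library of replicate 2 (Ighv1-58 at chr12:115312166-115312599 and Ighv1-53 at chr12:115158403-115158835), and the second pair led the shTet2 library of replicate 1 (Ighv1-26 at chr12:114788372-114788805 and Ighv1-22 at chr12:114746273-114746706). The third pair, Ighv1-9 at chr12:114583569-114584002 and Ighv1-81 at chr12:115920279-115920712, is shown because Ighv1-9 led all 4 KO libraries and Ighv1-81 gave the clearest difference between KO and WT.
Ighv1-58: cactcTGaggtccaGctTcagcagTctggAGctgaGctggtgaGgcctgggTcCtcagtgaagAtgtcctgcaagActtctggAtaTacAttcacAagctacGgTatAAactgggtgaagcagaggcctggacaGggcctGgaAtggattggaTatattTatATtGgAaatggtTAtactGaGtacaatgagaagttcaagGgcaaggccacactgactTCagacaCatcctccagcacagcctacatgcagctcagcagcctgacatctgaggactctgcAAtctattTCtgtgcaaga
Ighv1-53: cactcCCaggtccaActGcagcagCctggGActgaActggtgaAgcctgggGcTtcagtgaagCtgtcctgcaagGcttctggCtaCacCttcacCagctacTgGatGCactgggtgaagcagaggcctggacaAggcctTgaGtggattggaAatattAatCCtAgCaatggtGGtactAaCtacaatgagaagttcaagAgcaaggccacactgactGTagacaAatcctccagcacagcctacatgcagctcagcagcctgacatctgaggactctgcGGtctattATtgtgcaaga
Ighv1-26: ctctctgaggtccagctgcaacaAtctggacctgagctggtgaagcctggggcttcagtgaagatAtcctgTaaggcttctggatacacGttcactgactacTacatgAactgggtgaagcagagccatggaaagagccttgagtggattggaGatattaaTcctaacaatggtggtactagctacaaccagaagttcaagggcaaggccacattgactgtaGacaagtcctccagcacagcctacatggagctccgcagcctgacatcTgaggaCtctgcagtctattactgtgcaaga
Ighv1-22: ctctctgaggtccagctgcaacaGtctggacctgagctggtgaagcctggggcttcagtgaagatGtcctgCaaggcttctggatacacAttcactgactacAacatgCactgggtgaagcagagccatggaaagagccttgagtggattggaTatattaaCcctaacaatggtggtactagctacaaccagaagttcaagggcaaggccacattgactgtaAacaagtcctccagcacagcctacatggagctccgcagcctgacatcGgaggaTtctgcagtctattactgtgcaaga
Ighv1-9: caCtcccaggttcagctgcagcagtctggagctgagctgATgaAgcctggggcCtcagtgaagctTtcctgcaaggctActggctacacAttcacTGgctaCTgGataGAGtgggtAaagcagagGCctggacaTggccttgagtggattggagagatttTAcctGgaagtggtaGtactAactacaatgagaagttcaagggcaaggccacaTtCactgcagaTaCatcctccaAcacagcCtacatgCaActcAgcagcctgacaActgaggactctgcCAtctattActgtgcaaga
Ighv1-81: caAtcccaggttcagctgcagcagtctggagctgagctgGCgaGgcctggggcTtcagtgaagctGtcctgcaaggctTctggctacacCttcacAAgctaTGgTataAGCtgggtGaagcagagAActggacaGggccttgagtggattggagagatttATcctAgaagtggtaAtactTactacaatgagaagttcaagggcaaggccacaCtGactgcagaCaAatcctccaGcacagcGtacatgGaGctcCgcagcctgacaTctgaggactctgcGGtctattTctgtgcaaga
Over whole transcripts Ighv1-58 and Ighv1-53 were identical at 83.48% of bases, with 58 differing bases. Ighv1-26 and Ighv1-22 were identical at 96.58%, with 12 differing bases. Ighv1-9 and Ighv1-81 were identical at 87.18%, with 42 differing bases and a gap of 3 bases. The closest segment to Ighv1-58 was Ighv1-77, at 89.74% identity, and the closest to Ighv1-26 was Ighv1-18, at 96.87%.

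Total counts ranged from 27191862 to 30434184 in the GC libraries and from 6691167 to 18598386 in the lymphoma libraries. Rows of ribosomal and other structural RNA took 0.355% to 1.24% of counts in GC libraries and 43.5% to 80.6% in lymphoma libraries, and shares of counts are given outside those rows. Tet2 had 11.9 to 14.6 CPM (counts after dividing each library by its size) in KO libraries and 11.8 to 14.2 CPM in WT libraries, a gene-level count that checks no deletion of a part of the gene. It had 50.7 to 54.9 CPM in shTet2 libraries and 57.5 to 68.0 CPM in control libraries, a log2 fold change of -0.21 that did not pass the test (edgeR adjusted p = 0.295). Summed over 7 markers, GC B cell genes (Bcl6, Fas, S1pr2 and others) stood at 1774 to 1883 CPM outside the structural rows in KO libraries and 1587 to 1978 in WT libraries. They stood at 486 to 627 in shTet2 libraries and 312 to 404 in control libraries. Mef2b, 1 of the 7, was at 0 in some of these libraries. The shTet2 library of replicate 2 and the WT library of replicate 4 stand apart in segment use from the other libraries of their groups, and results that rest on them are given with and without them.

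The share of all counts that fell on the segments overlapped between KO and WT libraries. Ighv counts made up 0.0766%, 0.108%, 0.109% and 0.0725% of counts in the KO libraries and 0.0810%, 0.118% and 0.106% in the WT libraries. The highest and the lowest value of the GC libraries are thus a WT and a KO library. The KO mean was 0.0913% ± 0.0195 and the WT mean was 0.102% ± 0.0190 (SD, n = 4 and 3, two-sided exact permutation p = 0.4, smallest possible p 0.0571).

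In lymphoma the share was higher in the shTet2 libraries. It was 0.107% and 0.123% in the shTet2 libraries, against 0.0621%, 0.0586%, 0.0579%, 0.0652% and 0.0725% in the control libraries. Both shTet2 libraries lay above all control libraries. The means were 0.115% ± 0.0114 in shTet2 and 0.0632% ± 0.00594 in control libraries (SD, n = 2 and 5), a ratio of 1.81, and the two-sided exact permutation p of 0.0952 is the smallest that 2 against 5 libraries allow. The ratio was 2.81 with all counts, structural rows included, as the denominator. Over only those segments with at least 10 counts in every lymphoma library, which leaves out Ighv1-58, the difference was 0.0130 instead of 0.0515 percentage points (exact permutation p = 0.476). Structural RNA took 52.6% and 43.5% of counts in the shTet2 libraries, against 54.8% to 80.6% in the control libraries, with no overlap, and its part in the differences between these groups was not tested. Counts of the heavy chain constant regions moved along. As a share of variable and constant heavy chain counts together, the segments made up 8.91% ± 0.747 in shTet2 libraries and 8.72% ± 0.679 in control libraries (exact permutation p = 0.667). Summed plasma cell markers, 7 genes of antibody-secreting cells, stood at 835 to 1342 CPM outside the structural rows in shTet2 libraries and 588 to 776 in control libraries. Members differed in direction. Igj had 765 and 253 in shTet2 libraries and 114 to 249 in control libraries, while Irf4 had 346 and 299 against 348 to 394. Prdm1 (22.61 and 42.6 against 9.793 to 18.85) and Xbp1 (183.7 and 209.1 against 89.24 to 126.6) were, like Igj, higher in both shTet2 libraries than in any control library. Sdc1 overlapped, at 14.02 and 16.97 against 3.264 to 17.92. Tnfrsf17 was at 0 in some control libraries. The part of these markers in the difference was not tested. In bulk RNA, fewer cells of a type and less RNA per cell cannot be told apart.

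Diversity was described by the effective number of segments, the exponential of the Shannon entropy of the shares, which equals the number of equally used segments that would give the same entropy. It was 44.0, 46.9, 44.9 and 46.9 in the KO libraries, and 49.5, 44.2 and 37.1 in the WT libraries. The KO libraries lie within the range of the WT libraries, and the means were 45.7 ± 1.47 and 43.6 ± 6.27 (SD, n = 4 KO and 3 WT, two-sided exact permutation p = 0.629). Without the WT library of replicate 4 the KO mean lay 1.22 below the WT mean instead of 2.06 above it.

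The 2 shTet2 libraries differed from each other more than any other pair of a group. Their effective numbers were 45.3 and 11.6, against 52.1, 51.0, 47.1, 50.1 and 53.7 in the control libraries. Both lay below all control libraries, the first by a small margin and the second far below. The means were 28.4 ± 23.9 in shTet2 and 50.8 ± 2.46 in control libraries (SD, n = 2 and 5, exact permutation p = 0.0952, the smallest possible). With replicate 1 alone as the shTet2 library the difference was -5.47 segments, and with replicate 2 alone it was -39.2.

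**Figure D1:**
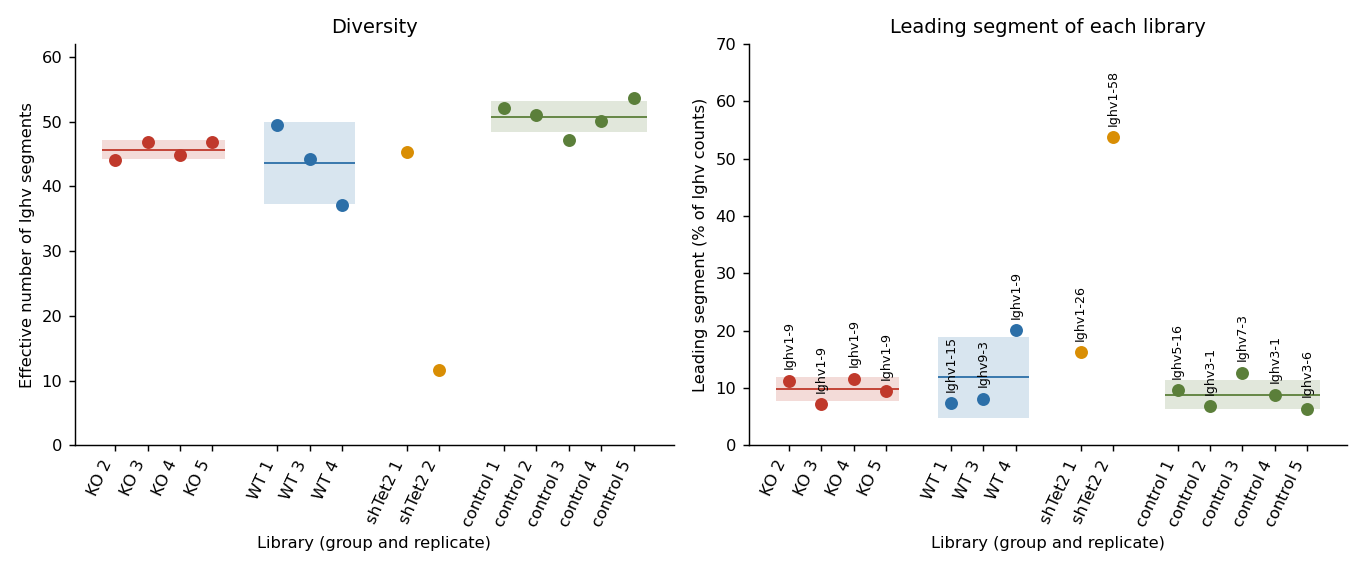
Effective number of Ighv segments (left) and share of the leading segment in percent of Ighv counts, with its name (right), for each library by group. Points are libraries, and lines and bands are the mean and 1 SD of groups with 3 or more libraries. The shTet2 library of replicate 2 has an effective number of 11.6 and a leading segment at 53.7%, while all others lie at 37.1 or more and at 20.1% or less.

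All 4 KO libraries had the same leading segment, Ighv1-9, and the 3 WT libraries had 3 different ones. Ighv1-9 made up 11.3%, 7.13%, 11.6% and 9.40% of the Ighv counts of the KO libraries, with a 95% Wilson interval of 6.86% to 7.42% for the lowest that covers counting error only. It made up 2.10% and 3.71% in the WT libraries of replicates 1 and 3 and 20.1% (19.6% to 20.5%) in that of replicate 4. The WT values lie on both sides of the KO values. By CPM, Ighv1-9 had 85.6, 75.7, 129 and 66.8 in KO libraries and 16.5, 44.1 and 212 in WT libraries, a log2 fold change of -0.02 (SE 0.88, edgeR adjusted p = 0.994). Without the WT library of replicate 4, the log2 fold change was 1.55 (adjusted p = 0.241).

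The leading segments of the other WT libraries were Ighv1-15, at 7.38% in replicate 1, and Ighv9-3, at 8.10% in replicate 3. Ighv1-15 stood at 0.381% to 1.54% in the other 6 GC libraries, so its lead belongs to 1 library. Its nearest segment, Ighv1-23, is identical at 98.01% of bases, so its count is uncertain. Ighv9-3 was common throughout, at 3.92% to 6.79% in the other GC libraries. In the WT library of replicate 4 the second segment was Ighv1-39 at 7.19%, against 0.480% to 1.66% elsewhere in GC, and in the KO library of replicate 3 the third was Ighv12-3 at 6.07%, against 0.154% to 0.619% elsewhere in GC. Across the groups, the leading segment took 9.85% ± 2.05 in KO and 11.9% ± 7.13 in WT libraries (SD, n = 4 and 3, exact permutation p = 0.743).

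By mean share over the 7 GC libraries the 10 most used segments were Ighv1-9, Ighv9-3, Ighv3-6, Ighv1-81, Ighv8-8, Ighv6-3, Ighv1-64, Ighv1-26, Ighv1-80 and Ighv1-55, in that order. Together they held 34.2% to 45.8% of a GC library's Ighv counts. Between 98 and 106 of the 114 segments had at least 1 count in each GC library. The first segment with counts from the D side, Ighv5-2, averaged 0.394% ± 0.131 in KO and 0.267% ± 0.0793 in WT libraries, and the last counted segment of the locus, Ighv1-85, averaged 0.668% ± 0.424 in KO and 0.885% ± 0.663 in WT libraries (SD, n = 4 and 3).

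**Figure D2:**
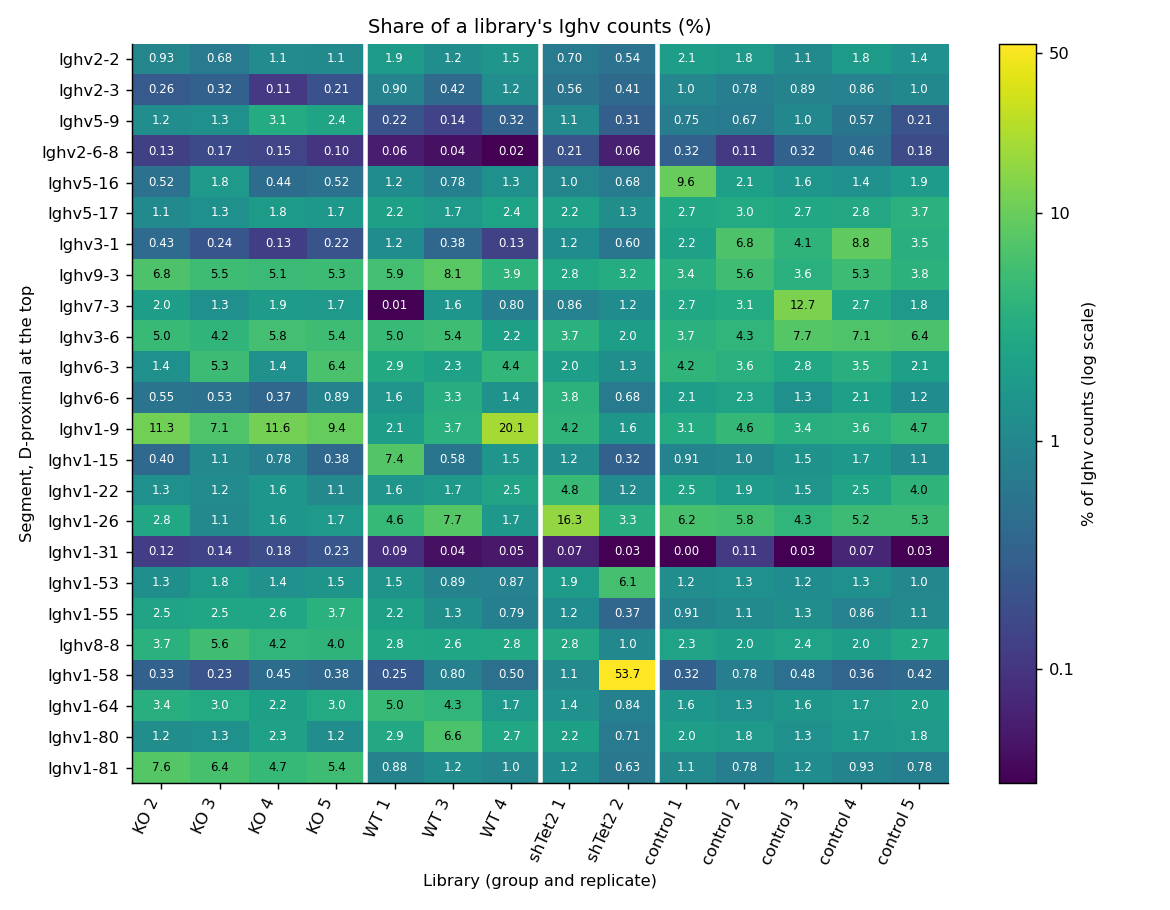
Share of each library's Ighv counts, in percent on a log colour scale, for 24 segments in the order of the locus. They are the leading segments of the libraries, the 10 most used of each tissue and those past the test. Ighv1-58 stands at 53.7% in the shTet2 library of replicate 2 and at 0.229% to 1.06% elsewhere, and Ighv1-81 stands at 4.7% to 7.6% in KO libraries and at 0.88% to 1.2% in WT libraries.

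Between KO and WT, Ighv1-81 gave the clearest difference. It had 57.9, 67.5, 52.1 and 38.7 CPM in the KO libraries, against 6.93, 14.6 and 10.4 CPM in the WT libraries. Every KO library lay far above every WT library. The log2 fold change was 2.34 (SE 0.30, edgeR adjusted p = 0.00522), and it kept its call when each of the 7 libraries was left out in turn, at 2.11 to 2.64. Ighv1-81 lies 2490 kb from the J segments, near the far end of the locus.

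Ighv5-9 was also higher in KO. It had 9.30, 14.1, 34.6 and 17.4 CPM in the KO libraries, against 1.71, 1.69 and 3.41 CPM in the WT libraries. The groups did not overlap, and the log2 fold change was 3.06 (SE 0.60, edgeR adjusted p = 0.0425). Leaving out 1 library ended the call in 5 of 7 cases, with log2 fold changes of 2.59 to 3.47.

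Segments that were lower in KO were Ighv6-6, Ighv2-3 and Ighv2-2. Ighv6-6 had 4.20, 5.65, 4.08 and 6.32 CPM in KO libraries and 12.3, 39.0 and 15.2 CPM in WT libraries, with no overlap. Its log2 fold change was -2.13 (SE 0.45, edgeR adjusted p = 0.0499), and the call ended in 5 of 7 cases when 1 library was left out. Ighv2-3 had 1.97, 3.42, 1.22 and 1.47 CPM in KO libraries and 7.09, 5.01 and 12.9 CPM in WT libraries. This was a log2 fold change of -2.04 (SE 0.41, edgeR adjusted p = 0.0183), again with no overlap, and the call ended without KO replicate 2 or KO replicate 5. Ighv2-2 had 7.07, 7.22, 12.7 and 8.06 CPM in KO libraries and 14.7, 14.6 and 16.1 CPM in WT libraries. The difference was small and even, at a log2 fold change of -0.79 (SE 0.18, edgeR adjusted p = 0.0168), and the call ended without KO replicate 5 or WT replicate 4.

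**Figure D3:**
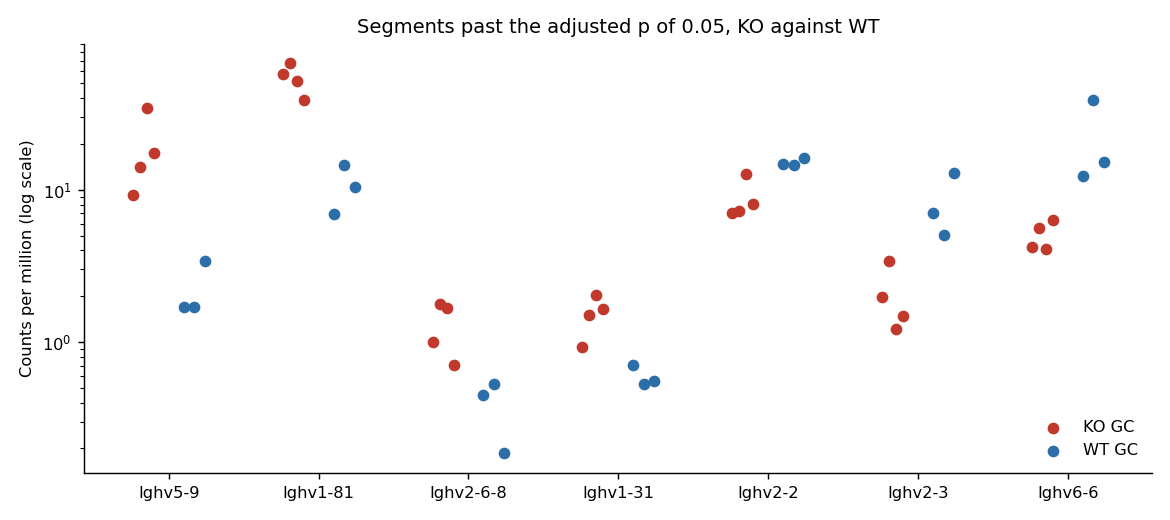
CPM on a log scale of the 7 segments past an adjusted p of 0.05 between KO (left points of each pair) and WT (right points) GC libraries. Points are libraries. KO and WT libraries do not overlap for any of the 7, and Ighv1-81 has 38.7 to 67.5 CPM in KO libraries and 6.93 to 14.6 CPM in WT libraries.

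In all, 90 of the 114 segments passed the filter on low counts, and 4 were higher and 3 lower in KO at an adjusted p under 0.05. The other 2 higher ones, Ighv2-6-8 (log2 fold change 1.70) and Ighv1-31 (1.34), averaged under 2 CPM, fell outside the rule for named segments and are named after their values were seen. Leaving out 1 library ended the call of Ighv2-6-8 in 4 of 7 cases and that of Ighv1-31 in 6 of 7. The share of segments called was 7.78%, beside 6.49% of all 13600 genes tested (1.92% higher and 4.57% lower). The comparison with all genes depended on the test and on the libraries used. DESeq2 called 15 of 86 segments with an adjusted p (17.4%), beside 9.15% of genes. A replicate block in edgeR was fitted only on replicates 3 and 4 of each group. It called 13 of 89 segments (14.6%), beside 2.55% of genes. DESeq2 kept all 7 calls, while the block kept 3 of them, Ighv1-81, Ighv5-9 and Ighv6-6. No label says whether replicate numbers pair these libraries. KO and WT libraries did not overlap for 14 of 90 segments (15.6%), beside 18.3% of all genes. The median log2 fold change was -0.09 over the segments and 0.01 over all genes. Summed myeloid markers (6 genes, none at 0) stood at 25.1 to 28.7 CPM outside the structural rows in KO libraries and 43.4 to 60.1 in WT libraries, and their part in these differences was not tested.

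Segments varied more between replicates than other genes. The median biological coefficient of variation, the spread between libraries of a group beyond counting error, was 0.415 over the 90 segments and 0.127 over all genes tested in GC libraries. In lymphoma libraries it was 0.298 over 73 segments and 0.165 over all genes. The segments were also less abundant, at a median of 6.27 CPM against 23.7 over all genes in GC libraries. In lymphoma libraries the medians were 2.29 and 8.69 CPM, and the part of abundance in the spread was not tested. The variable segments of the kappa light chain (Igkv), which are joined in the same manner, had 0.41 in GC and 0.308 in lymphoma libraries.

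KO libraries resembled each other in segment use more closely than WT libraries did. The likeness of a pair of libraries was taken as the percent of Ighv counts in common, the sum over segments of the smaller of the 2 shares. It was 74.4% to 82.8% (median 81.4%) over the 6 pairs of KO libraries, 59.7% to 68.5% over the 12 pairs of a KO and a WT library, and 60.0% to 69.2% over the 3 pairs of WT libraries. Every pair of KO libraries lay above every other GC pair. Pairs share libraries and are not independent, so no test was made. Segments at 1% or more and at 3 times or more the median of the other GC libraries numbered 1, 1, 2 and 2 in the KO libraries and held 2.26%, 6.07%, 8.84% and 4.26% of their Ighv counts. They numbered 5, 4 and 5 in the WT libraries and held 13.2%, 19.8% and 15.3%. The others of a WT library were mostly KO libraries, while those of a KO library were even between the groups. Segments common to KO libraries are thus passed over, and these numbers cannot be compared between KO and WT. Ighv1-81, at 7.62% in KO replicate 2, stood at 2.57 times the median there and was not counted.

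**Figure D4:**
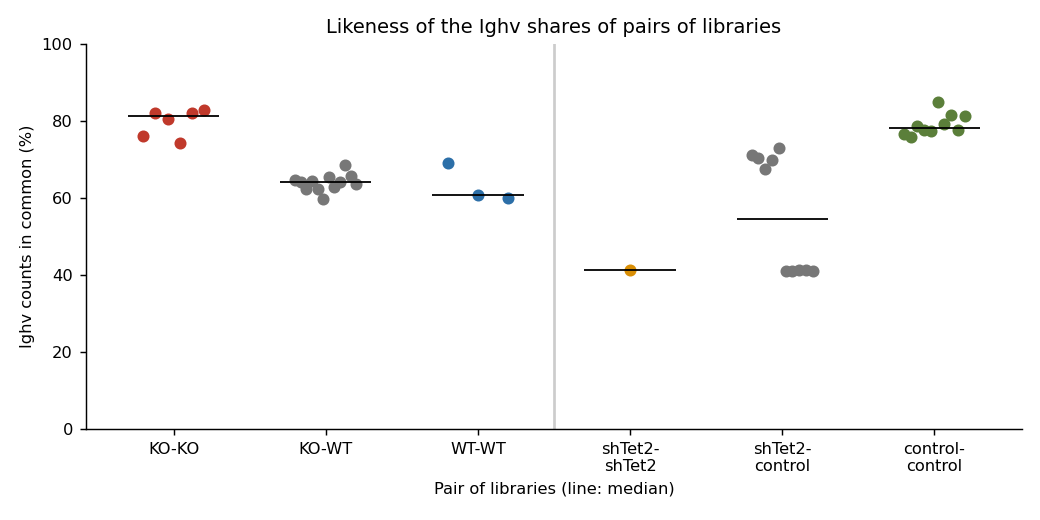
Percent of Ighv counts that pairs of libraries have in common, for pairs within and between groups of the GC libraries (left of the line) and of the lymphoma libraries (right of it). Points are pairs and short lines are medians. KO pairs lie at 74.4% to 82.8%, WT pairs at 60.0% to 69.2%, the shTet2 pair at 41.4% and control pairs at 75.8% to 85.0%.

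Ighv1-58 made up 53.7% of the Ighv counts of the shTet2 library of replicate 2 (3501 of 6516 counts, 95% Wilson interval 52.5% to 54.9%). It made up 1.06% in the shTet2 library of replicate 1, 0.320% to 0.780% in the 5 control libraries, beside 0.229% to 0.804% in the 7 GC libraries. The share was 119 times the median of the other 6 lymphoma libraries. The second segment of that library, Ighv1-53, made up 6.09%, against 0.996% to 1.86% in the other lymphoma libraries, and no other segment in it passed both 1% and 3 times the median of the others. Without Ighv1-58 the remaining segments of that library had an effective number of 44.8, beside 52.0 to 55.9 in control libraries without their own leading segments. The library also stood apart in its myeloid markers, which summed to 85.7 and 287 CPM outside the structural rows in the shTet2 libraries of replicates 1 and 2 and to 77.0 to 107.5 in the control libraries. The myeloid marker Itgam had 19.3 and 151 in the shTet2 libraries and 12.5 to 29.3 in the control libraries, and the part of myeloid RNA in the segment shares was not tested.

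The shTet2 library of replicate 1 had another leading segment. Ighv1-26 made up 16.3% of its Ighv counts (95% Wilson interval 15.4% to 17.1%), against 3.28% in the shTet2 library of replicate 2 and 4.32% to 6.23% in the control libraries. Ighv1-22, its close copy, came second at 4.79%, against 1.15% in replicate 2 and 1.53% to 4.04% in control libraries. How many of these reads belong to which of the 2 segments was not tested. Leaving out Ighv1-26, the other segments of this library had an effective number of 55.9.

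The leading segments of the control libraries were Ighv5-16 at 9.64% in replicate 1, Ighv3-1 at 6.80% in replicate 2 and 8.81% in replicate 4, Ighv7-3 at 12.7% in replicate 3 and Ighv3-6 at 6.37% in replicate 5. Ighv5-16 and Ighv7-3 led 1 library each and stood at 1.39% to 2.12% and 1.75% to 3.12% in the other control libraries. Ighv3-1 and Ighv3-6, by contrast, were common in all 5, at 2.24% to 8.81% and 3.73% to 7.68%. The control library of replicate 2 held only 897 Ighv counts, so that the 95% Wilson interval of its leading share ran from 5.33% to 8.64%, and a segment with 0 counts there may have had a share of up to 0.334%. The leading segment took 35.0% ± 26.5 in shTet2 and 8.86% ± 2.53 in control libraries (SD, n = 2 and 5). Both shTet2 libraries lay above all control libraries, with an exact permutation p of 0.0952, the smallest possible. The difference was 7.41 percentage points with replicate 1 alone and 44.9 with replicate 2 alone.

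Across the segments, 1 differed between shTet2 and control libraries by the test. Ighv1-53 had 7.25 and 26.6 CPM in the shTet2 libraries, against 2.90, 2.89, 2.58, 3.12 and 2.83 CPM in the control libraries. Both shTet2 libraries were higher than all control libraries, at a log2 fold change of 2.56 (SE 0.43, edgeR adjusted p = 0.0268). The call ended when any 1 control library was left out, at adjusted p of 0.0606 to 0.0939. Ighv1-58 had 4.12 and 235 CPM in the shTet2 libraries, against 0.756, 1.69, 1.06, 0.842 and 1.20 CPM in the control libraries, a log2 fold change of 6.81 that did not pass (SE 1.52, edgeR adjusted p = 0.102). DESeq2 called it (log2 fold change 6.79, DESeq2 adjusted p = 6.72e-06). The 2 shTet2 values were far apart from each other, and both lay above the controls.

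Of the 114 segments, 73 passed the filter in lymphoma libraries, and 1 was higher and 0 were lower in shTet2 (6 of the 73 had an unadjusted p under 0.05). This is 1.37% of segments, beside 2.58% of all 12797 genes tested (1.84% higher and 0.742% lower). DESeq2 called 2 segments higher and 1 lower, 4.62% of the 65 segments with an adjusted p, beside 4.74% of genes. With a replicate block, fitted only on replicates 1 and 2 of each group, edgeR called 0 of 60 segments, beside 0.0342% of genes. Of the 60, 6 had an unadjusted p under 0.05. The share of all genes with an unadjusted p under 0.05 was not counted. Groups did not overlap for 7 of 73 segments (9.59%), beside 21.2% of all genes. Ighv1-26 had 63.3 and 14.3 CPM in shTet2 libraries and 9.44 to 15.2 CPM in control libraries (log2 fold change 1.61, SE 0.54, edgeR adjusted p = 0.192). Ighv3-1 had 4.69 and 2.61 CPM in shTet2 libraries and 5.29 to 20.8 CPM in control libraries, with no overlap (log2 fold change -1.68, SE 0.57, edgeR adjusted p = 0.183). With only replicate 1 as the shTet2 library 9 of 82 segments were called (11%, beside 0.983% of genes), all 9 higher, on the assumption that the lone library varies like the others. Among them were Ighv1-26 (log2 fold change 2.31), Ighv1-58 (1.96) and Ighv1-53 (1.34), while with only replicate 2 there were 2 of 71 (2.82%, beside 19% of genes), Ighv1-58 and Ighv1-53.

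Pairs of control libraries had 75.8% to 85.0% of Ighv counts in common (10 pairs), although they held only 897 to 3726 Ighv counts each. The shTet2 library of replicate 1 had 67.7% to 73.1% in common with the control libraries and that of replicate 2 had 41.0% to 41.4%. The 2 shTet2 libraries had 41.4% in common with each other.

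Control lymphoma libraries were set against WT GC libraries, 2 tables whose cell type, preparation and sequencing cannot be told apart. Ighv rows took 0.0632% ± 0.00594 of counts in control lymphoma and 0.102% ± 0.0190 in WT GC libraries (SD, n = 5 and 3), with no overlap and an exact permutation p of 0.0357, the smallest possible. As a share of heavy chain counts the direction turned, at 8.72% in control lymphoma and 7.47% in WT GC libraries (exact permutation p = 0.0714). The effective number was 50.8 ± 2.46 in control lymphoma and 43.6 ± 6.27 in WT GC libraries (SD, n = 5 and 3), with an exact permutation p of 0.0714 and overlapping ranges. At equal depth, with every library thinned to 897 Ighv counts, it was 50.5, 51.0, 45.2, 48.3 and 51.5 in control lymphoma and 47.1, 41.9 and 35.3 in WT GC libraries. The leading segment took 8.86% ± 2.53 in control lymphoma and 11.9% ± 7.13 in WT GC libraries (exact permutation p = 0.536), and the direction turned without WT replicate 4, at 1.12 percentage points higher in control lymphoma. Of the 9 tests on library values in the 3 comparisons (3 each on the share of counts, on diversity and on the leading segment), 0 passed an adjusted p of 0.05 and 1 had an unadjusted p under 0.05. The lowest adjusted p was 0.171.

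Of the 10 most used segments of the lymphoma libraries and the 10 of the GC libraries, 5 were in both lists, Ighv1-9, Ighv9-3, Ighv3-6, Ighv6-3 and Ighv1-26. Ighv3-1 stood at 2.24% to 8.81% in control lymphoma, against 0.126% to 1.20% in GC libraries of either genotype, and no libraries overlapped. Ighv5-17 was likewise at 2.66% to 3.68% in control lymphoma and 1.72% to 2.41% in WT GC libraries. Ighv1-64 was lower in control lymphoma on average, at 1.66% ± 0.238 against 3.68% ± 1.71 in WT GC libraries (SD, n = 5 and 3), with overlapping values.

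Segments are grouped by sequence into subgroups, which are the first number of the name. Subgroup 1, the largest with 55 of the 114 rows, held 55.4%, 44.5%, 57.2% and 51.3% of Ighv counts in the KO libraries and 50.5%, 52.4% and 58.0% in the WT libraries. It held 57.0% and 77.2% in the shTet2 libraries, which includes Ighv1-26 and Ighv1-58, and 37.7% to 48.6% in the control libraries. Both shTet2 libraries lay above the controls. Subgroup 9 (4 rows, among them Ighv9-3) held 5.69% to 7.63% in KO libraries, against 9.21% to 9.63% in WT libraries, and subgroup 8 (9 rows, among them Ighv8-8) held 6.24% to 9.51% in KO libraries, against 4.04% to 5.67% in WT libraries, both with no overlap. Subgroup 3 (5 rows) held 6.87% to 17.1% in control lymphoma, against 3.05% and 5.66% in shTet2 libraries and 3.54% to 7.90% in WT GC libraries.

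By position, the 38 segments nearest to the D segments (144 to 838 kb from the J segments) held 24.4% to 27.8% of Ighv counts in KO, 24.8% to 28.9% in WT, 24.5% and 14.4% in shTet2 and 32.7% to 40.8% in control libraries. The control lymphoma libraries thus lay above all others here, with a mean of 37.1% ± 3.11 against 27.0% ± 2.03 in WT GC libraries (SD, n = 5 and 3). The 38 segments farthest away (1638 to 2570 kb), Ighv1-81 among them, held 32.8% to 37.2% in KO libraries, against 21.4% to 32.5% in WT libraries, without overlap. Ighv1-81 alone held 4.70% to 7.62% in KO libraries and 0.881% to 1.23% in WT libraries. That difference exceeds the gap between 32.8% and 32.5%, so without this segment the groups overlap. The same 38 segments held 27.1% and 68.8% in shTet2 libraries, the second of which includes Ighv1-58, and 21.6% to 27.4% in control libraries.

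**Figure D5:**
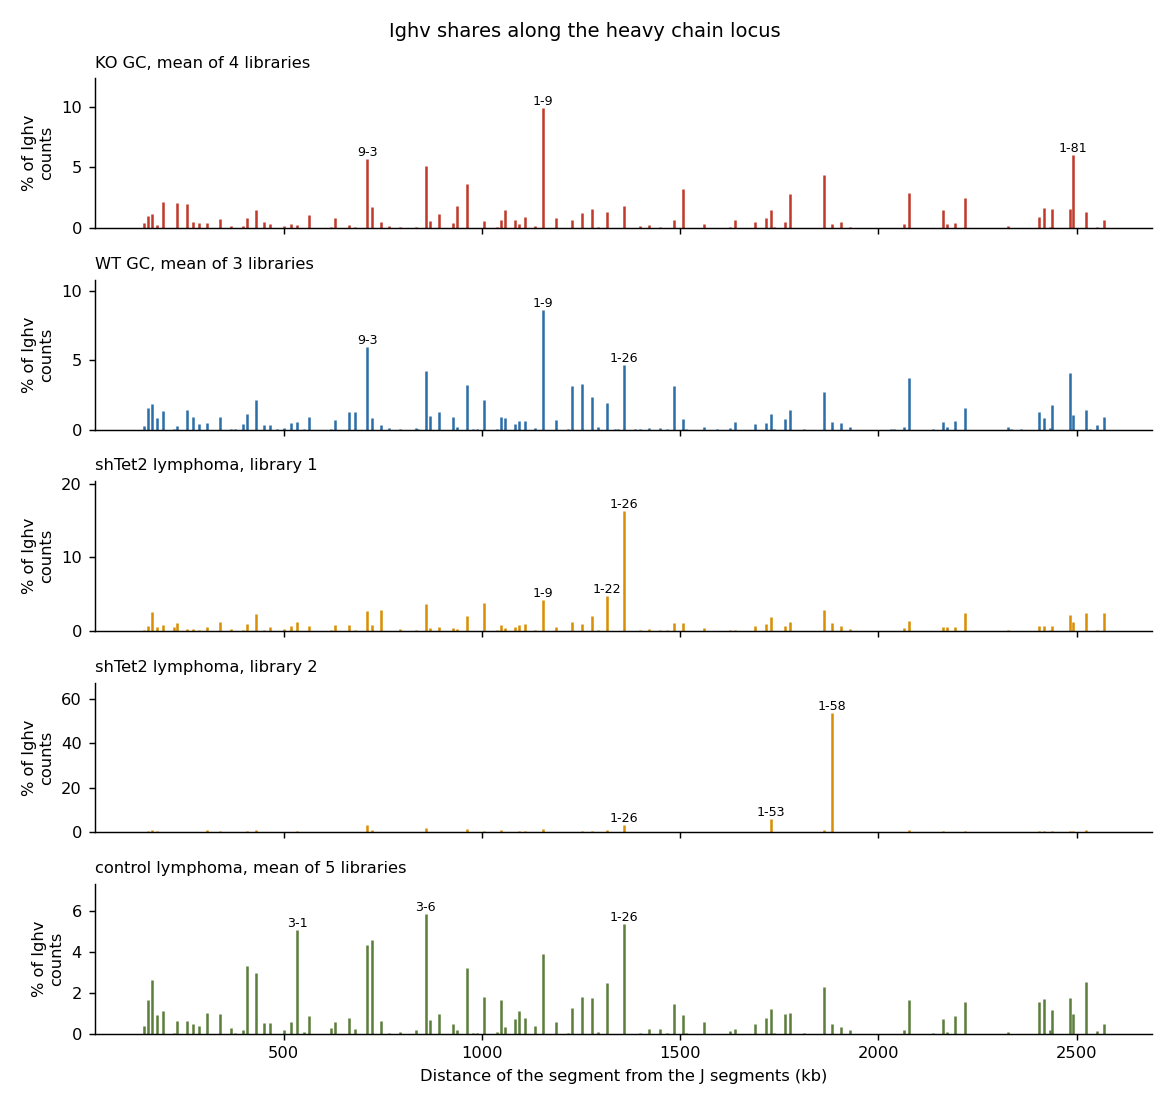
Share of Ighv counts of each segment in percent against its distance from the J segments in kb, for the means of the KO, WT and control libraries and for each shTet2 library, with the 3 highest named. Scales differ between panels. Use is spread along the whole locus in KO, WT and control libraries, while Ighv1-58 reaches 53.7% in the shTet2 library of replicate 2.

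The constant regions, which follow the variable segment in the same messenger RNA and set the antibody class, differed between KO and WT in GC cells. Of 7 constant rows tested, 1 was higher and 2 were lower in KO, beside 1.92% and 4.57% of all genes. Ighg1 had 1566, 1222, 1072 and 706 CPM in KO libraries and 180, 131 and 137 CPM in WT libraries, with a log2 fold change of 2.93 (SE 0.31, edgeR adjusted p = 0.00344). Ighg2c had 52.5 to 119 CPM in KO libraries and 736 to 1528 CPM in WT libraries, a log2 fold change of -3.72 (SE 0.45, edgeR adjusted p = 0.00964). Neither gene overlapped between the groups. Ighg3 had 182 to 325 CPM in KO libraries and 481 to 698 CPM in WT libraries (log2 fold change -1.11, SE 0.22, edgeR adjusted p = 0.0276). Its call ended without KO replicate 2, KO replicate 4, WT replicate 1 or WT replicate 4, and without the filter on low counts (adjusted p = 0.0685). Ighm, the constant region of IgM and the most abundant in all libraries, had 8784 to 11700 CPM in KO libraries and 8778 to 10370 CPM in WT libraries, with a log2 fold change of 0.02 (edgeR adjusted p = 0.963). Ighg2b (-0.33), Ighe (0.02) and Igha (-1.70, edgeR adjusted p = 0.111) did not pass.

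In lymphoma, 2 of the 7 constant rows were higher in shTet2 and 0 were lower, beside 1.84% and 0.742% of all genes. Ighm had 3821 and 3983 CPM in shTet2 libraries and 2015 to 2691 CPM in control libraries, a log2 fold change of 0.70 (SE 0.11, edgeR adjusted p = 0.0101). Ighe, the constant region of IgE, had 6.73 and 7.31 CPM in shTet2 and 0.482 to 1.76 CPM in control libraries, a log2 fold change of 2.95 (SE 0.34, edgeR adjusted p = 0.00317). Both kept their calls when each library was left out in turn. The class-switched rows Ighg1 (1.96), Ighg2b (2.31), Ighg2c (1.13), Ighg3 (0.49) and Igha (1.38) had log2 fold changes above 0 that did not pass.

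The kappa light chain showed a leading segment in the same shTet2 library. Igkv2-137 made up 40.6% of its kappa variable counts, against 0.738% in the shTet2 library of replicate 1 and 0.830% to 1.35% in control libraries, and Igkv3-2 followed at 9.72%. The effective number of kappa segments was 45.7 and 17.5 in the shTet2 libraries and 22.6 to 50.6 in the control libraries. Unlike the heavy chain, the kappa chain had a common leading segment in all 5 control libraries, Igkv1-117, at 8.40%, 16.1%, 25.1%, 38.2% and 16.8%. The control library of replicate 4, in which Igkv1-117 was highest, had an ordinary leading heavy chain share of 8.81%. The shTet2 library of replicate 1 had Igkv3-4 at 7.31% in the lead. Igkv3-2 was the 1 kappa segment called between shTet2 and control libraries, at 34.5 and 48.5 CPM in shTet2 libraries and 6.02 to 8.66 CPM in control libraries (log2 fold change 2.54, SE 0.15, edgeR adjusted p = 1.23e-05). Unlike Igkv2-137 (4.85 and 203 CPM in shTet2 libraries, 3.05 to 4.98 CPM in control libraries, edgeR adjusted p = 0.133), it was high in both shTet2 libraries, and it kept its call when each of the 7 libraries was left out in turn.

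Of the other parts of the pathway, none of the 4 J segments of the heavy chain took most of the J counts of a library. Ighj4 ranged from 18.0% to 37.0% over the 14 libraries and Ighj2 from 9.48% to 27.1%, and in the shTet2 library of replicate 2 the highest was Ighj3 at 33.6%. The J counts were few in lymphoma, at 54 (control replicate 2) to 644 a library and 220 in shTet2 replicate 2, against 1424 to 2342 in GC libraries. These shares are thus uncertain in lymphoma. Of 94 kappa variable segments tested between KO and WT, 5 were higher and 4 were lower, beside 1.92% and 4.57% of all genes. Those of smallest p were Igkv14-130 (log2 fold change -2.63, edgeR adjusted p = 3.32e-05), Igkv1-110 (1.53, adjusted p = 0.000325) and Igkv9-123 (2.20, adjusted p = 0.00132). Of 73 tested in lymphoma, 1 was higher in shTet2 and 0 were lower, beside 1.84% and 0.742% of all genes. None of the tested D and J rows (7 in GC, 4 in lymphoma), lambda variable rows (3 in each), light chain constant rows (2 in each), genes of V(D)J recombination and the surrogate light chain such as Rag1 (9 in each), partners of the receptor such as Cd79a (6 in each) or factors that bind heavy chain promoters and enhancers such as Pou2af1 (9 in GC, 10 in lymphoma) passed edgeR's test in either comparison. Of these rows, 5 of 36 in GC and 5 of 34 in lymphoma had an unadjusted p under 0.05, a share not counted over all genes. DESeq2 called 0 of them in GC, beside 9.15% of genes, and 2 in lymphoma, beside 4.74% of genes. The 2 were Cd79a (edgeR log2 fold change -0.48) and Ebf1 (-0.71), which are named after their values were seen. B cell markers stood at 7871 to 8244 CPM outside the structural rows in KO, 8127 to 8787 in WT, 6219 to 6409 in shTet2 and 6016 to 6752 in control libraries (6 genes, none at 0).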

How the data were processed

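RNA was extracted with Trizol and an RNeasy kit and libraries were made with a stranded TruSeq mRNA kit, per the labels' protocols. The submitters' processing notes name STAR 2.3.0e and the build GRCm38.p3. Both deposited tables hold raw read counts, which per the file headers came from featureCounts 1.5.1 run on GENCODE vM3 exons and summed by gene name. The command line in those headers has no option for strand, paired ends or multi-mapping. Without such an option featureCounts leaves out reads that map to several places, which lowers counts of close copies.

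Members and lists were chosen with earlier results of these data known. Libraries were mapped by title, and 0 count columns were left unmapped. Each library had 897 to 35837 Ighv counts. A list of 191 rows of ribosomal and structural RNA, fixed by name, was left out of the denominators. Of pairs of libraries in a group, none agreed within sampling noise (chi-square over degrees of freedom 1.60 or more over Ighv rows).

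Genes were tested with edgeR 4.0.16 in R 4.3.3 (TMM scaling, filterByExpr, robust quasi-likelihood fits, Benjamini-Hochberg adjustment over all genes of a table, adjusted p under 0.05), with CPM on TMM-scaled totals. DESeq2 1.42.0 was an alternative. Library values were compared with two-sided exact permutation tests (scipy 1.17.1), and 9 such tests were adjusted together, 1 of them added after seeing the data. Intervals are 95% Wilson intervals, and the limit for 0 counts is 3 counts of the total. Both cover counting error only. The tests were checked on simulated data.

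Segments were named if they led a library, were among the 10 highest mean shares of the GC or lymphoma libraries, passed the test at a mean of 2 CPM or more (up to 10 per direction), or were the first or last counted segment of the locus. All constant rows and up to 3 members of other lists were named. From the list of GC B cell markers, 1 gene was left out and is not reported here. Alternatives were another scaling, denominator, diversity index, filter or test, thinning, summing by subgroup, a replicate block and leaving out each library. The block used only libraries whose replicate number occurs in both groups. Sequences came from GENCODE vM21 transcripts of GRCm38, and 97 of the 114 rows had one that shared at least 90% of exon bases. Promoter and recombination signal sequences were not searched.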

Additional observations from a re-analysis of the deposited data

Results flagged for a closer look

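A single library stood far from the others of its group for 5 of the values examined. In 27 measures (3 per library and the shares of 24 named segments) over the KO and control groups, 54 groups were examined. Chance picks out about 5% of groups, but this figure does not apply to segments that were named because they led 1 of these libraries.

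In control lymphoma, Ighv5-16 made up 9.64% of Ighv counts in replicate 1, against 1.39% to 2.12% in the other 4 libraries. Ighv7-3 made up 12.7% in replicate 3, against 1.75% to 3.12% in the other 4. Each was the leading segment of its library, which is a reason it was named.

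In KO GC libraries, Ighv5-16 made up 1.77% in replicate 3, against 0.440% to 0.523% in the other 3. Ighv1-80 made up 2.29% in replicate 4, against 1.23% to 1.35%. Ighv1-55 made up 3.75% in replicate 5, against 2.46% to 2.57%. The WT and shTet2 groups, with 3 and 2 libraries, were too small for this comparison, so the share of 53.7% of Ighv1-58 in shTet2 replicate 2 was not examined by it.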

How the results depend on the processing

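For segments called between KO and WT (7), DESeq2 gave 15 (17.4%, beside 9.15% of genes). A replicate block on replicates 3 and 4 of each group gave 13 (14.6%, beside 2.55% of genes), 3 of the 7 among them. Leaving out 1 library gave 2 to 9. It gave 2 without KO replicate 5 (2.25%, beside 4.52% of genes) and 4 without KO replicate 3 (4.55%, beside 5.31% of genes). The highest, 9 of 90 segments without WT replicate 1, stood beside 186 genes called higher and 475 called lower of 13889. Between shTet2 and control (1), DESeq2 gave 3 (4.62%, beside 4.74% of genes) and no filter 2 (1.9%, beside 3.48% of genes). The block, on replicates 1 and 2 of each group, gave 0, beside 0.0342% of genes. Leaving out any 1 control library gave 0, and genes called higher fell from 235 to between 82 and 183. No label says whether replicate numbers pair libraries. Deviations of same-numbered libraries correlated at 0.03, -0.02, -0.10 and -0.00159 in 2 pairs per comparison. These are too few to decide it, and with 2 shTet2 libraries the deviations of 1 mirror those of the other. With the block Ighv1-9 turned to a log2 fold change of 0.017, and leaving out 1 library it ranged from -0.52 to 1.55.

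Between control lymphoma and WT GC libraries the difference in effective number (7.18) passed at an exact permutation p of 0.0357 as a rarefied number of segments (6.04), over subgroups (1.43) and without leading segments (5.27, an alternative chosen after seeing the data, as was thinning), and it turned to -2.80 over rows with at least 10 counts, where fewer segments of the shallower lymphoma libraries remain. The Ighv share of that comparison (a test added after seeing the data) turned from lower to 1.24 percentage points higher in control lymphoma with heavy chain counts as the denominator, and it ranged from -0.0489 to -0.0302 when 1 library was left out, where the smallest possible p lies above 0.05. The dominant subgroup's share differed by -11.2 percentage points (exact permutation p = 0.0357).

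Leaving out 1 library, the differences ranged as follows. Effective number ranged from -1.22 to 5.03 for KO against WT, from -39.2 to -5.47 for shTet2 against control and from 3.90 to 10.2 for control lymphoma against WT GC. The leading share ranged from -4.23 to 2.11, from 7.41 to 44.9 and from -5.23 to 1.12 percentage points in the same order. The Ighv share ranged from -0.0208 to -0.00212 and, for shTet2 against control, from 0.0434 to 0.0596 percentage points. The 43 other recomputed values of these results did not change by the rule used, but sizes moved. For most of them the rule was the direction and side of the threshold. Counts of calls were judged only by being of similar size. Library values with a replicate block were judged by direction and size, without a test. For shTet2 against control, the Ighv share differed by 0.0130 instead of 0.0515 percentage points over segments with at least 10 counts in every library, and the effective number by -3.35 without leading segments and -13.2 over rows with at least 10 counts, instead of -22.3. For KO against WT the effective number differed by 0.16 instead of 2.07 without leading segments. Depth limits the lymphoma libraries, where 897 to 7456 Ighv counts leave rare segments unseen.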
